A study of Mus musculus with 36 samples.

Results

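Nfkbia, Socs1, Rgs16 and Nr4a2 are 4 of the 988 genes on a targeted RNA panel that was read in mouse colon lesions and colon tumours. All 4 were present in both count tables and passed the low-count filter in each of the 8 comparisons fitted here. They were named as a set of signal-induced brakes and early-response genes, and they were selected on measured values of this series. Those values were taken to be the differences between genotypes in tumours and lesions (Nfkbia and Rgs16) and between cromolyn and AOM only (Socs1 and Nr4a2), so these 4 comparisons, and any difference between them, are given as descriptions, without tests. The tumour and lesion libraries behind the choice of Nfkbia and Rgs16 also enter their differences between tumours and lesions, which are likewise descriptions. Tests are given for Socs1 and Nr4a2 between tumours and lesions and for all 4 genes in MC-38 tumours. The choice was made with results of the whole series known, those of the tumour and lesion libraries among them. The tests between tumours and lesions, and those in MC-38 tumours, are therefore not independent of the choice.

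The study asks what mast cells contribute to colon tumours, and it uses mice with the Kit "sash" mutation on a C57BL/6 background (cKitw-sh), called sash mice here, beside wild-type C57BL/6 mice. The sash allele lowers Kit, the receptor that mast cells need for survival, in several Kit-dependent cell types, so its effects are not confined to mast cells. Colon tumours came from sash mice (n = 5) and wild-type mice (n = 5) aged 32 weeks, 18 weeks after the last of 6 intraperitoneal injections of the colon carcinogen azoxymethane (AOM, 10 mg/kg per week). Colon preneoplastic lesions came from sash mice (n = 3) and wild-type mice (n = 3) aged 14 weeks, given 3 AOM injections over 3 weeks and killed 3 weeks later. A further 3 groups of lesions, all from wild-type mice aged 14 weeks that had received AOM for 3 weeks, had cromolyn, a mast cell stabiliser, together with AOM (n = 3), had cromolyn for 3 weeks after AOM (n = 3), or had AOM only (n = 3). The last pair of groups was tumours of MC-38, a C57BL/6 colon carcinoma line, from saline-treated sash mice (n = 5) and saline-treated wild-type mice (n = 4). The labels do not state how many animals stood behind the samples, so the spread between replicates may be partly technical.

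The first 3 of these genes encode brakes on different pathways, and the fourth is an early-response gene. Nfkbia encodes IκBα, which holds NF-κB in the cytoplasm and is itself transcribed by NF-κB, so that its mRNA is a common readout of recent NF-κB activity. Socs1 encodes a suppressor of JAK kinases that is induced through STAT factors by interferon-gamma and other cytokines. Rgs16 encodes a GTPase-activating protein that shortens signalling from receptors coupled to Gi and Gq, chemoattractant receptors among them, in leukocytes and other cells. Nr4a2 encodes Nurr1, an orphan nuclear receptor of the NR4A family that is induced within minutes to hours as an early-response gene by cyclic AMP, calcium and antigen receptor signals.

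The 250 bases before the annotated start of each gene are shown because Nfkbia and Rgs16 were the pair higher in sash colons and Socs1 and Nr4a2 the pair higher after cromolyn. They are RefSeq sequences of build GRCm38.p6 on the strand of the gene, at chr12:55492648-55492897 (minus) for Nfkbia, chr1:153740103-153740352 (plus) for Rgs16, chr16:10785537-10785786 (minus) for Socs1 and chr2:57124004-57124253 (minus) for Nr4a2. Capitals mark every match, on either strand, to 5 short motifs searched in this window, namely GGG, any 5 bases and CC (κB-like), TTCNNNGAA (GAS-like, bound by STAT factors), TGACGTCA (CRE, bound by CREB), TGACG (CRE half-site) and TGANTCA (AP-1).
Nfkbia: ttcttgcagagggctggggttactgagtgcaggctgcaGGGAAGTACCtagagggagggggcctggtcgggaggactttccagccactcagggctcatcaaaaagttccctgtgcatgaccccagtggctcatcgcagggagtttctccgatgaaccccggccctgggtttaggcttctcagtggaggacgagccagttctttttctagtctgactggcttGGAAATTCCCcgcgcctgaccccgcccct
Rgs16: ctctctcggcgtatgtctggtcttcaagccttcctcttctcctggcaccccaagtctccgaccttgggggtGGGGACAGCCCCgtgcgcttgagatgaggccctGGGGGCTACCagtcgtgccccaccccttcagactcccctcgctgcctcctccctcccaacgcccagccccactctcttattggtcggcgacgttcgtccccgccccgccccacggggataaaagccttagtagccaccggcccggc
Socs1: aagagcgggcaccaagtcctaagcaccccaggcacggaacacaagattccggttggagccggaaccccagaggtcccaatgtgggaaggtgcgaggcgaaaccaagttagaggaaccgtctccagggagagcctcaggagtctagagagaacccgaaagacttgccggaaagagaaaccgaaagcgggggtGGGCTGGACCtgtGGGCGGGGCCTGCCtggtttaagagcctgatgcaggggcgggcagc
Nr4a2: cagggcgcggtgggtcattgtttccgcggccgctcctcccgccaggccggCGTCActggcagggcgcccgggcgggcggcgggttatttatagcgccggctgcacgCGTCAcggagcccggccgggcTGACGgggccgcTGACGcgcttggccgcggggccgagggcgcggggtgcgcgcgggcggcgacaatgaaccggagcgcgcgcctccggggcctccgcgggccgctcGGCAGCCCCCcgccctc

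The κB-like letters occurred in all 4 windows, with 2 matches in Nfkbia, 5 in Rgs16, 3 in Socs1 and 1 in Nr4a2, and several of the matches in Rgs16 and Socs1 overlap one another. At least 1 such match stood in 45.8% of all 32851 mouse promoter windows of this length, and at least 5 stood in 4.07% of them. The CRE half-site occurred in Nr4a2 alone, with 4 matches 107 to 200 bases before the start. Across all windows, 17.8% held at least 1 CRE half-site and 0.137% held 4 or more. No match to the full CRE (1.55% of all windows), the GAS-like motif (7.02%) or the AP-1 motif (6.75%) was present in the 4 windows. No match of one motif overlapped a match of another. The Nr4a2 window was 80.0% G or C, against a median of 52.4% over all windows, and the panel data do not address binding at any of these letters.

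Library totals were 449880 to 1264354 counts in the AOM table and 480136 to 986415 in the MC-38 table. Levels below are in CPM, each count divided by the TMM-scaled size of its library, which were set within each table, so a level in MC-38 tumours is not on the same scale as one in AOM samples. A level belongs to the stretch of transcript that the panel amplifies, so levels of different genes were not compared. Kit was at 49.7 to 99.3 CPM in sash tumours against 95.3 to 476 CPM in wild-type tumours, and at 114 to 143 CPM in sash lesions against 334 to 509 CPM in wild-type lesions. In MC-38 tumours Kit was low in both genotypes, at 2.05 to 23.2 CPM in sash hosts and 5.97 to 18.1 CPM in wild-type hosts. The summed level of 5 mast cell markers (of 7 listed) was 14.6 to 39.9 CPM in sash tumours and 50.4 to 159 CPM in wild-type tumours, 15.3 to 21.5 CPM in sash lesions and 31.8 to 55.6 CPM in wild-type lesions, and 3.40 to 9.97 CPM in sash MC-38 tumours and 378 to 1145 CPM in wild-type MC-38 tumours. Of these markers, Cpa3, Ms4a2 and Tpsab1 were at 0 in sash lesions and Cma1 in sash MC-38 tumours, while Tpsab1 was also at 0 in wild-type lesions. Intestinal epithelium markers (2 of 12 on the panel) summed to at least 20265 CPM in every AOM library, and to 41.0 to 189 CPM in sash and 24.3 to 72.8 CPM in wild-type MC-38 tumours. Among the wild-type tumours, replicate 2 stood apart with a summed B cell marker level of 486 CPM, against 14.7 to 28.4 CPM in the other 4, and replicate 4 with a neutrophil marker level of 62.0 CPM, against 179 to 257 CPM, and an epithelium marker level of 49665 CPM, against 25857 to 32916 CPM. The results that use wild-type tumours are therefore also given without replicates 2 and 4, a step chosen after the data were seen. Replicate 1, with a macrophage marker level of 2582 CPM against 552 to 1316 CPM in the other 4, was kept in those fits.

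**Figure D1:**
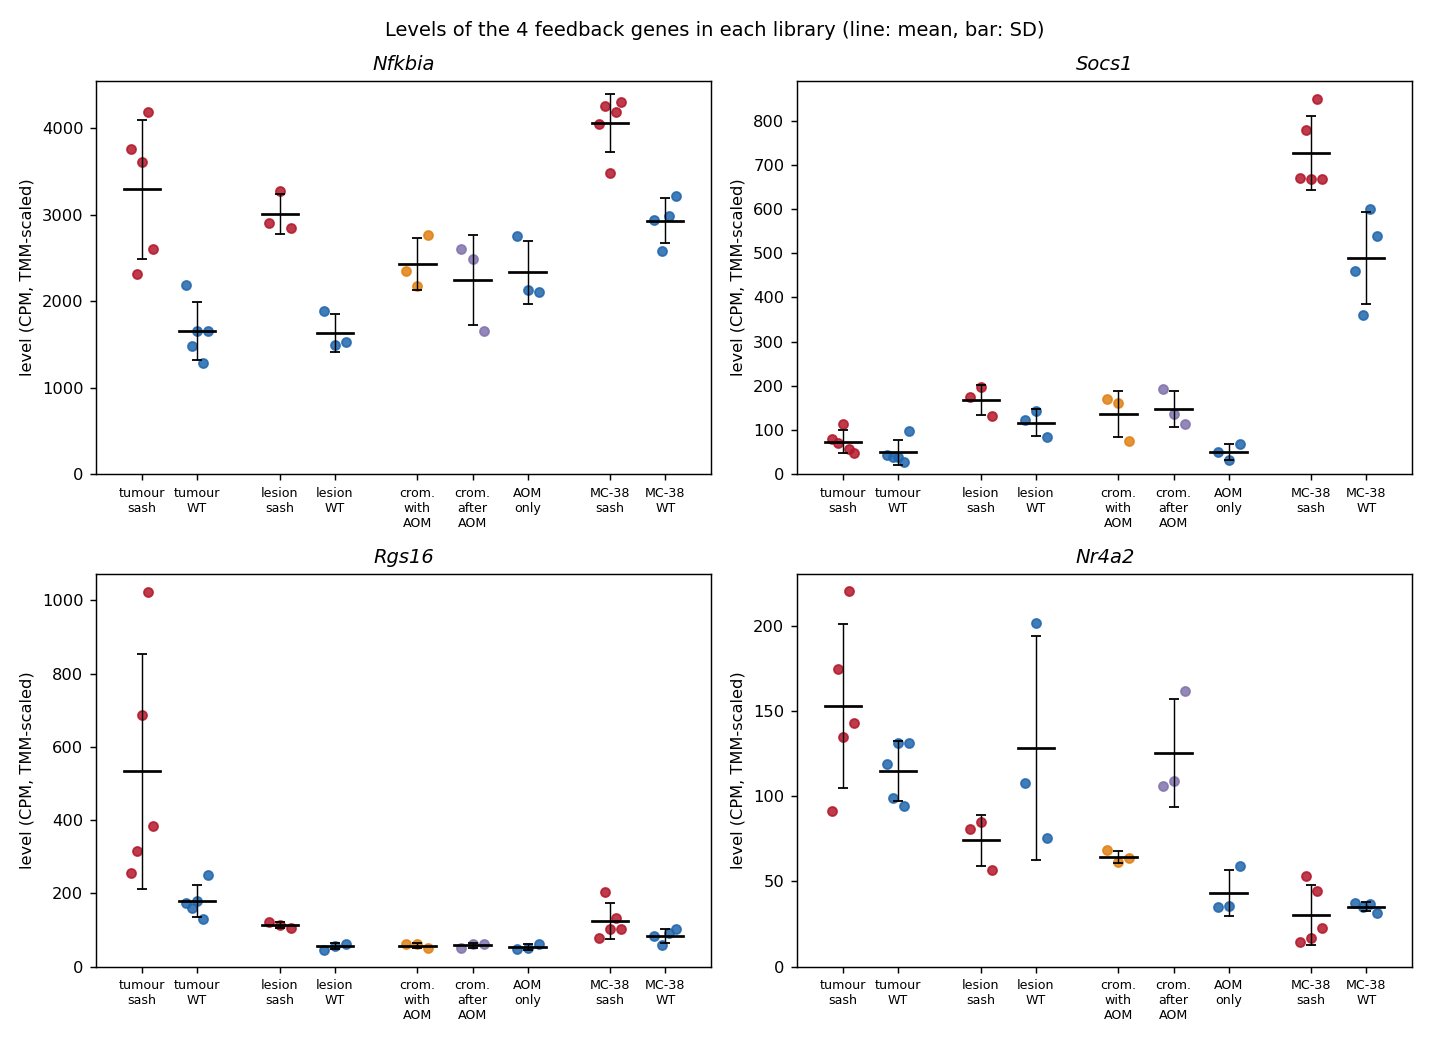
Level of each of the 4 genes (CPM on a linear axis from 0) in every library of the 9 groups, with group means (lines) and SD (bars). Nfkbia and Rgs16 of sash tumours and sash lesions lie above all wild-type counterparts, Socs1 and Nr4a2 of both cromolyn groups lie above all AOM-only libraries, and MC-38 levels come from a separately scaled table.

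Nfkbia was higher in sash colons at both stages, with only small differences between the stages. Sash tumours had 3759, 2311, 3607, 4197 and 2599.9 CPM, against 2187, 1478, 1659.6, 1284 and 1649 CPM in wild-type tumours. Every sash tumour was above every wild-type tumour, a separation found for 3.89% of the 797 genes tested, and the closest pair was sash replicate 2 and wild-type replicate 1. The log2 difference was 0.98 (SE 0.20), and it was 0.85 without wild-type tumours 2 and 4. Sash lesions had 2909, 3280.0 and 2847 CPM, against 1887, 1488 and 1530.3 CPM in wild-type lesions. The lesion groups did not overlap, with every sash lesion above every wild-type lesion as for 10.1% of 775 genes, and with a log2 difference of 0.85 (SE 0.18). Neutrophil markers (4 of 8 on the panel) summed to 367 to 735 CPM in sash tumours and 62.0 to 257 CPM in wild-type tumours, and B cell markers (5 of 6) to 35.4 to 183 CPM in sash lesions and 540 to 2113 CPM in wild-type lesions. Their part in the differences of Nfkbia and Rgs16 was not tested.

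In the AOM table the group means of Nfkbia formed 3 steps. The highest were sash tumours at 3295 ± 802 CPM (SD, n = 5) and sash lesions at 3012 ± 234 CPM (SD, n = 3). The middle step held cromolyn with AOM at 2432 ± 305, AOM only at 2333 ± 364 and cromolyn after AOM at 2249.6 ± 522 CPM (SD, n = 3 each). The lowest were wild-type tumours at 1652 ± 336 CPM (SD, n = 5) and wild-type lesions at 1635 ± 219 CPM (SD, n = 3). Neighbouring means within a step lay closer together than the larger of their SDs, and the 2 gaps between steps exceeded it. Against AOM only, the log2 difference was 0.04 (SE 0.18) for cromolyn with AOM and -0.08 (SE 0.18) for cromolyn after AOM, and the sign of both depended on the scaling. Wild-type lesions and AOM-only lesions, which carry the same labelled treatment, did not overlap in Nfkbia, the mean of the first being 0.701 times that of AOM only. The 3 sash lesions were also above all 3 AOM-only lesions, at 2752, 2135 and 2111 CPM.

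Tumours and lesions differed in Nfkbia by less than the SE. The log2 difference of sash tumours against sash lesions was 0.12 (SE 0.20). In wild-type mice it was -0.02 (SE 0.20), and its sign turned under several alternatives. Over the panel, 47.5% of 848 genes were called between the stages in sash mice and 37% of 848 in wild-type mice. Stage, age and the number of AOM injections changed together and cannot be told apart.

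The counts of NF-κB genes that passed between the stages are given as a description, with nothing particular to the pathway read from them. Among ligands and receptors that activate NF-κB, 5 of 14 tested genes were higher and 2 lower in sash tumours than in sash lesions, with a list median of 0.83 against 0.02 over all genes on the log2 scale. In wild-type mice 4 were higher and 3 lower. Il1a, an interleukin 1 alarmin, had a log2 difference between tumours and lesions of 6.11 in sash mice (SE 0.81, adjusted p = 3.89e-05) and of 3.43 in wild-type mice (SE 0.73, adjusted p = 0.00276). Il1b, the inducible form of interleukin 1, averaged 2644 ± 1468 CPM in sash tumours and 84.7 ± 38.5 CPM in sash lesions, and 601 ± 382 CPM in wild-type tumours and 60.8 ± 19.2 CPM in wild-type lesions (SD, n = 5 per tumour group, n = 3 per lesion group). Il33, an epithelial and stromal alarmin, was also higher in tumours (log2 difference 4.61 in sash and 2.74 in wild-type mice). Of the 10 subunits, kinases and adaptors, 1 was higher and 3 lower in sash tumours, and 3 were higher and 2 lower in wild-type tumours. Beside these counts stand the 47.5% and 37% of all genes called. Rela, the p65 subunit that IκBα binds, was higher in tumours by 0.56 in sash (SE 0.16, adjusted p = 0.00995) and 0.85 in wild-type mice (SE 0.16, adjusted p = 0.00100). The panel held only 2 other NF-κB inhibitors of the 12 listed. Of these, Cyld, a deubiquitinase, was lower in sash tumours than in sash lesions (-0.42, adjusted p = 0.0484), and Nfkbib, which encodes IκBβ, was lower in wild-type tumours than in wild-type lesions (-0.41, adjusted p = 0.0464).

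MC-38 tumours gave the one genotype comparison outside the AOM samples. Sash hosts had 4054, 4266, 3488, 4193 and 4302 CPM of Nfkbia, against 2943, 2587, 2986 and 3214 CPM in wild-type hosts. Every tumour from sash hosts was above every tumour from wild-type hosts, as for 4.62% of the 714 genes tested there. The log2 difference was 0.46 (SE 0.12), which missed the threshold in edgeR's quasi-likelihood test (adjusted p = 0.0891) and passed it with DESeq2 (adjusted p = 0.00619). Neither Nfkbib (-0.24, adjusted p = 0.291) nor Cyld (0.13, adjusted p = 0.575) passed in the edgeR test. By edgeR 0 of the 4 feedback genes passed in this comparison (2 by DESeq2), in which edgeR called 1.26% of genes and DESeq2 called 51 of 699 (7.3%), and 156 of 714 genes had an unadjusted p under 0.05.

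**Figure D2:**
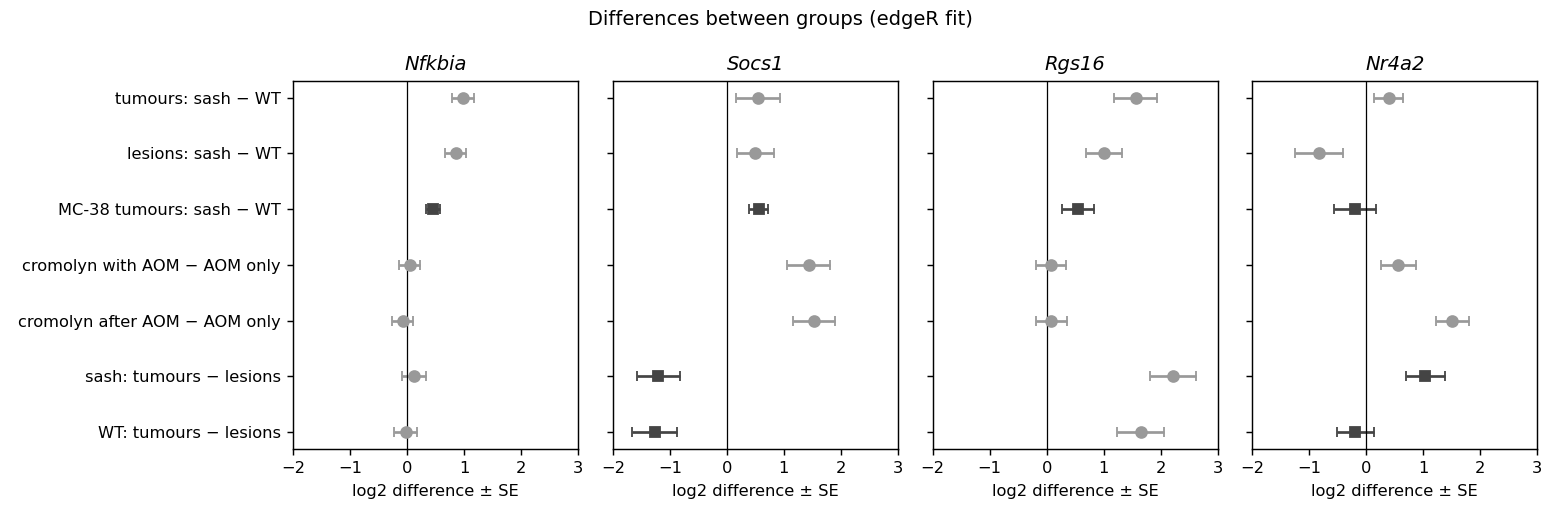
Log2 difference with its SE (edgeR fit) for each gene in 7 comparisons, the first-named group minus the other. Dark squares mark comparisons given with a test (MC-38 tumours for all genes and the 2 stage comparisons for Socs1 and Nr4a2) and grey circles those given as a description. Nfkbia lies above 0 in all 3 sash comparisons (0.98, 0.85 and 0.46), and Rgs16 reaches 2.22 between sash tumours and sash lesions.

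Socs1 was higher in both cromolyn groups than in AOM only, and lower in tumours than in the lesions of the genotype experiment. With cromolyn during AOM the lesions had 169, 161 and 75.8 CPM, with cromolyn after AOM 191, 135 and 112 CPM, and with AOM only 49.1, 32.0 and 69.0 CPM. All 6 cromolyn libraries were above the 3 AOM-only libraries, which rest on 17 to 34 counts each. The log2 difference was 1.43 (SE 0.38) for cromolyn with AOM and 1.53 (SE 0.37) for cromolyn after AOM, and the 2 share the AOM-only samples. Every library of the cromolyn group was above every AOM-only library for 13.8% of the 768 genes tested in each of the 2 comparisons.

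A second group carried the same labelled treatment as AOM only, with another level of Socs1. Wild-type lesions of the genotype experiment averaged 116 ± 30.3 CPM and the AOM-only lesions 50 ± 18.5 CPM (SD, n = 3 each), a ratio of 2.32 with no overlap between the groups. The cromolyn groups averaged 135 ± 51.8 CPM with AOM and 146 ± 40.7 CPM after AOM (SD, n = 3 each), and both differed from the wild-type lesions by less than the larger SD of the pair. Over the whole panel, 137 of 772 genes (17.7%) differed by more than 2-fold between these 2 groups of like treatment. The summed B cell markers (5 of 6 on the panel, none at 0 in these groups) were 387 to 1809 CPM for cromolyn with AOM, 273 to 1632 CPM for cromolyn after AOM, 120 to 294 CPM for AOM only and 540 to 2113 CPM for wild-type lesions. T cell markers (11 of 11) summed to 762 to 1311, 686 to 1188, 615 to 818 and 650 to 1454 CPM in the same 4 groups. Intestinal epithelium markers (2 of 12) summed to 21575 to 49851, 20265 to 37243, 46870 to 61813 and 49425 to 58032 CPM in these groups, so that cromolyn after AOM lay wholly below AOM only. Fibroblast markers (3 of 7) were at 6784 to 10821, 7162 to 8309, 11054 to 12750 and 1675 to 5936 CPM, with both cromolyn groups below AOM only. The 1 endothelium marker on the panel (of 5) was also lower, at 128 to 173 and 126 to 189 CPM in the cromolyn groups and 196 to 213 CPM in AOM only. The part of these cell types in the levels of Socs1 and Nr4a2 was not tested, and in bulk tissue fewer cells of a type and less RNA per cell cannot be told apart.

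Few other genes of the JAK-STAT pathway passed with cromolyn, and few passed over the whole panel. Nothing particular to the pathway is read from these counts. Of 5 other JAK-STAT brakes tested, 0 passed in either cromolyn comparison by edgeR, and DESeq2 called 0 of them for cromolyn with AOM (0 at an unadjusted p under 0.05 by edgeR) and 1 for cromolyn after AOM (1 at an unadjusted p under 0.05). By edgeR 2 of 768 genes (0.26%) were called for cromolyn with AOM and 37 of 768 (4.82%) for cromolyn after AOM. Among interferon-gamma-induced genes, 12 of 13 had a positive difference for cromolyn with AOM and 8 of 13 for cromolyn after AOM, with medians of 0.38 and 0.06. The one that passed by edgeR was Psmb9, an immunoproteasome subunit, higher by 1.03 with cromolyn during AOM (SE 0.16, adjusted p = 0.0219). Il15, a cytokine that signals through JAK1 and JAK3, was lower with cromolyn after AOM (-1.23, SE 0.31, adjusted p = 0.0427).

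Between stages Socs1 was lower in tumours of both genotypes. Sash tumours had 80.1, 70.4, 112, 55.6 and 46.7 CPM, against 174, 197 and 131 CPM in sash lesions. No sash tumour reached the lowest sash lesion, as for 25.1% of the 848 genes tested. The log2 difference was -1.20 (SE 0.38, adjusted p = 0.0185 by edgeR), and 23.6% of all genes were called lower there. It missed the threshold without sash lesion 1 (-1.17, adjusted p = 0.0545), without sash lesion 2 (-1.07, adjusted p = 0.0760) and with levels scaled to Rpl13a, the single housekeeping gene on the panel (-1.16, adjusted p = 0.0941). Wild-type tumours had 41.9, 39.5, 38.8, 26.9 and 98.1 CPM, against 122, 142 and 82.9 CPM in wild-type lesions. In all, 4 of 5 wild-type tumours lay well below the lesions, and replicate 5 lay among them. The log2 difference was -1.27 (SE 0.39, adjusted p = 0.0198, with 17.6% of all genes called lower), and -1.68 without wild-type tumour 5 (adjusted p = 0.00187). It missed the threshold without wild-type lesion 1 (-1.20, adjusted p = 0.0674), without wild-type lesion 2 (-1.07, adjusted p = 0.0913), without wild-type tumours 2 and 4 (-0.99, adjusted p = 0.0590) and with Rpl13a scaling (-1.26, adjusted p = 0.0950).

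Of 14 interferon-gamma-induced genes tested, 7 were lower and 0 higher in sash tumours than in sash lesions (list median -1.66), where 23.6% of all genes were lower. In wild-type tumours 3 were lower and 0 higher than in wild-type lesions (list median -0.77), beside 17.6% of all genes, so the wild-type count is near that of the panel. Irf1, a transcription factor induced by interferon-gamma, averaged 1091 ± 172 CPM in sash tumours and 3782 ± 279 CPM in sash lesions, and 1159 ± 323 CPM in wild-type tumours and 2457 ± 287 CPM in wild-type lesions (SD, n = 5 per tumour group, n = 3 per lesion group). Its log2 difference was -1.8 in sash mice (adjusted p = 1.01e-05) and -1.13 in wild-type mice (adjusted p = 0.000405). Psmb9 was lower by 1.76 in sash and 1.58 in wild-type mice by the size of the log2 difference, and Gbp2b, an interferon-induced GTPase, averaged 0.960 ± 0.828 CPM in sash tumours and 21.9 ± 8.61 CPM in sash lesions. Of the other JAK-STAT brakes, Socs2, which limits growth hormone signalling, was lower in tumours (-1.38, adjusted p = 0.000251 in sash mice, and -0.85, adjusted p = 0.0113 in wild-type mice), whereas Socs3, the main brake on interleukin 6 signalling, did not pass (0.48 and 1.25, adjusted p = 0.531 and 0.128). Il6 itself was higher in tumours (5.66 in sash, adjusted p = 0.000802, and 3.72 in wild-type mice, adjusted p = 0.0188). T cell markers summed to 353 to 516 CPM in sash tumours and 483 to 678 CPM in sash lesions, and to 217 to 743 CPM in wild-type tumours and 650 to 1454 CPM in wild-type lesions. Their median log2 difference was -0.68 in sash mice (1 of 10 tested lower) and -1.46 in wild-type mice (5 of 10 lower). B cell markers summed to 11.4 to 39.9 CPM in sash tumours and 35.4 to 183 CPM in sash lesions, and to 14.7 to 486 CPM in wild-type tumours and 540 to 2113 CPM in wild-type lesions. Their median was -2.67 in sash mice (0 of 4 lower by edgeR, 1 at an unadjusted p under 0.05 and 1 by DESeq2) and -3.27 in wild-type mice (4 of 4 lower). Epithelium markers summed to 24880 to 30439 CPM in sash tumours and 55730 to 89733 CPM in sash lesions, and to 25857 to 49665 CPM in wild-type tumours and 49425 to 58032 CPM in wild-type lesions. The part of these cell types in the Socs1 difference was not tested.

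The group means of Socs1 in the AOM table had 1 gap wider than the larger SD. Above it were sash lesions at 167 ± 33.7 CPM (SD, n = 3), the 2 cromolyn groups and wild-type lesions, and below it sash tumours at 73.0 ± 25.5 CPM (SD, n = 5), AOM only and wild-type tumours at 49.0 ± 28.0 CPM (SD, n = 5).

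In AOM samples the genotypes overlapped in Socs1. The log2 difference of sash against wild type was 0.55 (SE 0.39) in tumours, 0.30 without wild-type tumours 2 and 4, and 0.50 (SE 0.32) in lesions. In MC-38 tumours sash hosts had 671, 780.1, 667, 849 and 667 CPM, against 460.5, 360.0, 601 and 539 CPM in wild-type hosts. Every tumour from sash hosts was above every tumour from wild-type hosts, as for 4.62% of 714 genes. The log2 difference was 0.56 (SE 0.17, 95% interval 0.19 to 0.92, adjusted p = 0.104 by edgeR, 0.0347 by DESeq2). Among 14 interferon-gamma-induced genes in MC-38 tumours, 1 passed, namely Ciita, the master regulator of MHC class II genes, which was higher in sash hosts by 0.84 (SE 0.17, adjusted p = 0.0422). The list median there was -0.12, and 2 of 14 differences were positive. All 10 tested T cell markers had a positive difference in sash hosts, with a summed level of 2271 to 3987 CPM in sash and 2128 to 3342 CPM in wild-type hosts. The part of T cells in the Socs1 difference was not tested.

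Rgs16 was the member with the widest range in AOM samples, 86.2% of 806 ranked genes having an equal or smaller SD over the 25 libraries. Sash tumours had 255, 316, 688, 1024 and 384 CPM, against 173, 159, 179, 131 and 249 CPM in wild-type tumours. Every sash tumour was above every wild-type tumour, as for 3.89% of 797 genes, but sash replicate 1 was only just above wild-type replicate 5. Sash replicates 3 and 4 were the highest of the series. The log2 difference was 1.56 (SE 0.38), 1.42 without wild-type tumours 2 and 4, and 1.18 without sash tumour 4. By edgeR 0 of 797 genes (0%) were called between the tumours of the 2 genotypes, with 159 at an unadjusted p under 0.05, while DESeq2 called 82.

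Sash lesions had 122, 113 and 106 CPM of Rgs16, against 46.0, 57.6 and 62.2 CPM in wild-type lesions. The 2 groups of 3 were narrow, and every sash lesion was above every wild-type lesion, as for 10.1% of 775 genes. The log2 difference was 1.01 (SE 0.31). Same-numbered lesions of the 2 genotypes deviated together, though the labels do not say that the numbers pair them. With the replicate number as a block the difference was 1.01 for Rgs16 and 0.86 for Nfkbia. The number of genes called over the panel was then 84 of 775, against 22 (2.84%) without the block. The genotype difference of Rgs16 in tumours exceeded that in lesions by 0.57 (SE 0.54). Rgs16 counts in the 3 cromolyn and AOM-only groups were 21 to 33 per library, and the levels were 57.5 ± 6.76, 58.2 ± 6.41 and 54.2 ± 7.53 CPM (SD, n = 3 each) for cromolyn with AOM, cromolyn after AOM and AOM only. Wild-type lesions, at 55.2 ± 8.34 CPM (SD, n = 3), differed from AOM only by less than the SD, at a ratio of 1.02 with overlap.

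Tumours had more Rgs16 than lesions in both genotypes. In sash mice the means were 533 ± 321 CPM in tumours (SD, n = 5) and 113 ± 7.85 CPM in lesions (SD, n = 3), a log2 difference of 2.22 (SE 0.41). In wild-type mice they were 179 ± 43.7 CPM in tumours (SD, n = 5) and 55.2 ± 8.34 CPM in lesions (SD, n = 3), a log2 difference of 1.65 (SE 0.40). Every tumour was above every lesion of its genotype, as for 27.5% of 848 genes in sash and 16.7% in wild-type mice. Counted by the adjusted p, 23.9% of all genes were higher in sash tumours and 19.5% in wild-type tumours. The wild-type difference was 1.82 without wild-type tumours 2 and 4.

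The order of the group means of Rgs16 had 3 gaps wider than the larger SD, below sash tumours, below wild-type tumours and below sash lesions. The remaining 4 groups, at 54.2 to 58.2 CPM, did not differ beyond their spread. In MC-38 tumours sash hosts had 78.0, 204, 102, 132 and 103 CPM, against 82.7, 58.3, 92.9 and 103 CPM in wild-type hosts. Those groups overlapped, and the log2 difference was 0.55 (SE 0.28, 95% interval -0.06 to 1.16, adjusted p = 0.269). It was 0.31 without sash MC-38 tumour 2.

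Neither of the 2 other RGS genes on the panel (of 10 listed) passed as higher in tumours. Rgs1, a B cell and T cell regulator of chemokine receptors, was lower in sash tumours than in sash lesions (-1.92, SE 0.40, adjusted p = 0.00146) and did not pass in wild-type mice (-0.32, adjusted p = 0.567). Rgs2, which acts mainly on Gq, did not pass in either genotype (-0.03 in sash, adjusted p = 0.932, and 0.41 in wild-type mice, adjusted p = 0.146). Of 14 chemoattractant receptors coupled to Gi, 4 were higher and 1 lower in sash tumours, and 3 were higher and 3 lower in wild-type tumours. Cxcr2, the receptor for neutrophil-attracting chemokines, averaged 266 ± 95.4 CPM in sash tumours and 83.7 ± 31.8 CPM in wild-type tumours, and had 2 counts in all over the 3 sash lesions and 1 over the 3 wild-type lesions. Fpr2, a formyl peptide receptor of myeloid cells, was higher in tumours of both genotypes (log2 difference 4.53 in sash and 2.85 in wild-type mice), and its relative Fpr1 averaged 89.0 ± 22.3 CPM in sash tumours and 19.8 ± 10.3 CPM in wild-type tumours (SD, n = 5 each), with 5 counts over the sash lesions and 2 over the wild-type lesions. Neutrophil markers (4 of 8 on the panel, 2 of them, Cxcr2 and Fpr1, also in the receptor list) summed to 367 to 735 CPM in sash tumours, 62.0 to 257 CPM in wild-type tumours, 7.16 to 15.3 CPM in sash lesions and 6.06 to 8.84 CPM in wild-type lesions. Of these, Mpo was at 0 in both lesion groups. Macrophage markers (6 of 7, with Marco at 0 in every group) summed to 1145 to 1625 CPM in sash tumours and 421 to 931 CPM in sash lesions, and to 552 to 2582 CPM in wild-type tumours and 635 to 770 CPM in wild-type lesions. The neutrophil sum was highest in sash tumours 4 and 5, whereas Rgs16 was highest in 4 and 3, and the part of neutrophils and macrophages in the Rgs16 difference was not tested.

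**Figure D3:**
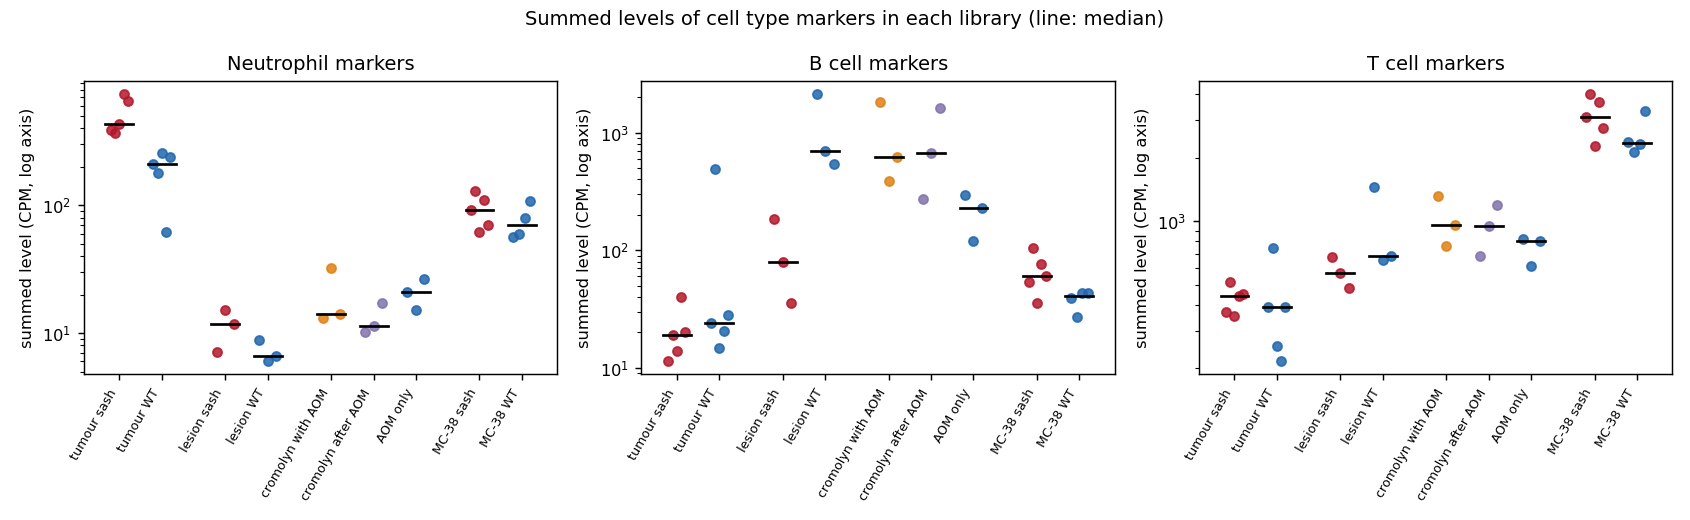
Summed level of neutrophil, B cell and T cell markers (CPM, log axes with a different range in each panel) in every library of the 9 groups, with group medians (lines). Neutrophil markers are highest in sash tumours (367 to 735 CPM), and B cell markers are at 35.4 to 183 CPM in sash lesions, against 540 to 2113 CPM in wild-type lesions.

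The genes whose pattern over the 25 AOM libraries was most like that of Rgs16 were Cxcl2, a neutrophil-attracting chemokine, Il17a, the type 3 cytokine, and Tnfsf9, the ligand of the costimulatory receptor 4-1BB. Their root-mean-square differences from Rgs16 in SD units were 0.311, 0.324 and 0.326, against a median of 1.35 over 805 genes. All 3 were highest in sash tumours, and Cxcl2 averaged 2566 ± 1556 CPM there and 332 ± 179 CPM in wild-type tumours (SD, n = 5 each), and 20.9 ± 2.32 CPM in sash lesions and 2.31 ± 1.08 CPM in wild-type lesions (SD, n = 3 each). This likeness is mostly a likeness of group means, since all libraries share the same 7 groups. In wild-type lesions, AOM only and both cromolyn groups, Il17a had at most 3 counts per library and Cxcl2 at most 6, so their levels there are near the floor. After group means were subtracted, the nearest genes were Dusp4 (0.696), Egr2 (0.740) and Dusp5 (0.792), with a median of 1.38. Egr2 is an early-response transcription factor, and Dusp4 and Dusp5 encode nuclear phosphatases that inactivate MAP kinases. Dusp4 was also higher in tumours (2.90 in sash, adjusted p = 3.75e-05, and 2.68 in wild-type mice, adjusted p = 0.000105), while Egr2 did not pass in sash mice (0.93, adjusted p = 0.130).

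**Figure D4:**
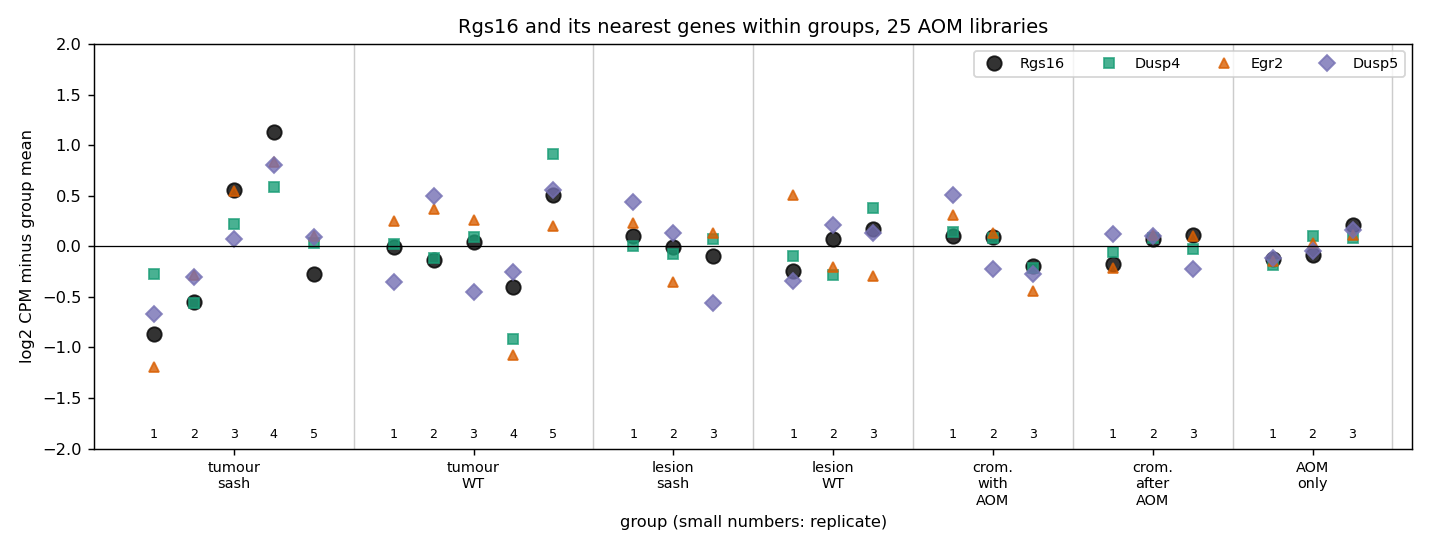
Deviation of each library from its group mean (log2 CPM) for Rgs16 and the 3 genes nearest to it within groups, in the 25 AOM libraries. Rgs16 is highest in sash tumour 4 (1.13) and lowest in sash tumour 1 (-0.86), and Dusp4 deviates to the same side in both (0.58 and -0.27).

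Nr4a2 was higher after cromolyn that followed AOM than in AOM only. Its genotype difference was positive in tumours and negative in lesions, with overlapping genotypes in both. Cromolyn with AOM gave 68.2, 61.3 and 63.9 CPM, cromolyn after AOM 106, 109 and 162 CPM, and AOM only 35, 35.7 and 58.8 CPM. All cromolyn libraries were above the AOM-only libraries, and the group given cromolyn after AOM stood highest. Such a separation from AOM only held for 13.8% of the 768 genes tested in each of the 2 comparisons. The log2 difference from AOM only was 0.56 (SE 0.30) for cromolyn with AOM and 1.51 (SE 0.29) for cromolyn after AOM. The AOM-only values rest on 15 to 29 counts per library.

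Against the other group of like treatment the picture for Nr4a2 was different. Wild-type lesions of the genotype experiment had 108, 201 and 75.3 CPM, which was 2.97 times the mean of AOM only, without overlap. Cromolyn after AOM, at 125 ± 31.6 CPM, and wild-type lesions, at 128 ± 65.5 CPM (SD, n = 3 each), differed by less than their SDs. Sash lesions had 80.5, 84.7 and 56.6 CPM. They overlapped with wild-type lesions, with a log2 difference of -0.82 (SE 0.42) that was -0.28 without wild-type lesion 2. Against AOM only the direction was the other way. Sash lesions averaged 74.0 ± 15.2 CPM and AOM only 43.2 ± 13.5 CPM (SD, n = 3 each), with overlap.

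In tumours Nr4a2 was at 91.5, 175, 135, 220.0 and 143 CPM in sash mice, against 119, 98.6, 131, 94.1 and 131 CPM in wild-type mice. The highest 4 were sash tumours and so was the lowest, and the log2 difference was 0.39 (SE 0.25), or 0.27 without wild-type tumours 2 and 4. The genotype difference in tumours minus that in lesions was 1.23 (SE 0.47). Over the whole panel edgeR called 0 of 848 genes (0%) for this difference, with 128 at an unadjusted p under 0.05, and DESeq2 called 20. Sash tumours exceeded sash lesions, with a log2 difference of 1.04 (SE 0.34, adjusted p = 0.0218 by edgeR), where 23.9% of all genes were called higher. Every sash tumour was above every sash lesion, as for 27.5% of 848 genes. The call was lost without sash lesion 1 (1.11, adjusted p = 0.0505), without sash lesion 3 (0.88, adjusted p = 0.0880), without sash tumour 4 (0.88, adjusted p = 0.0523) and with Rpl13a scaling (1.07, adjusted p = 0.0904). Wild-type tumours and lesions overlapped in Nr4a2, with a log2 difference of -0.19 (SE 0.33, 95% interval -0.88 to 0.50, adjusted p = 0.682).

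The group means of Nr4a2 ran from 153 ± 47.9 CPM in sash tumours (SD, n = 5) through wild-type lesions, cromolyn after AOM and wild-type tumours at 115 ± 17.6 CPM (SD, n = 5), none of these neighbours differing beyond its spread. Sash lesions at 74.0 ± 15.2 CPM, cromolyn with AOM at 64.5 ± 3.51 CPM and AOM only at 43.2 ± 13.5 CPM (SD, n = 3 each) followed, with gaps wider than the larger SD above sash lesions and above AOM only. In MC-38 tumours Nr4a2 was near the bottom of what the depth resolves, at 7 to 40 counts in sash and 21 to 35 counts in wild-type hosts. Sash hosts had 14.4, 53.1, 17.0, 44.3 and 22.6 CPM, against 37.3, 35, 36.9 and 31.3 CPM in wild-type hosts. The wild-type values lay inside the range of the sash values, and the log2 difference was -0.20 (SE 0.37, 95% interval -1.0 to 0.61, adjusted p = 0.767).

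Of the listed early-response genes, 6 of 32 were on the panel and neither of the other 2 NR4A genes was. Between stages 1 was higher and 1 lower in each genotype. Dusp4 was the higher one in both. In sash mice the lower one was Klf2, a quiescence factor of lymphocytes and endothelium (-1.39, adjusted p = 0.00414), and in wild-type mice Cd69, an activation marker of lymphocytes (-2.37, adjusted p = 0.00401). With cromolyn, 0 of 5 tested passed in either comparison by edgeR. For cromolyn with AOM 1 had an unadjusted p under 0.05 and DESeq2 called 1, and for cromolyn after AOM both counts were 0. Among MC-38 tumours 0 of 6 passed by edgeR, with 2 at an unadjusted p under 0.05 and 1 called by DESeq2, the smallest p being that of Dusp5 (0.87 in sash hosts, SE 0.25, adjusted p = 0.0985).

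The genes differed in direction between stages. Of the 2 tested between stages, Socs1 was called lower in both genotypes and Nr4a2 higher in sash mice, so that 2 of 2 passed in sash mice (47.5% of all genes) and 1 of 2 in wild-type mice (37% of all genes). Nothing particular to the set is read from these counts. Ranked among 805 genes by likeness of deviations within groups, Nr4a2 was 24th nearest to Rgs16 (0.991) and Rgs16 was 27th nearest to Nr4a2, while the member nearest to Nfkbia (rank 136) and to Socs1 (rank 118) was Rgs16. Nearest to Nfkbia within groups were Tgif1 (0.684), a transcriptional corepressor, Tnf (0.686), an inducer of NF-κB, and Nos2 (0.753), the inducible nitric oxide synthase, with a median of 1.39. Nearest to Nr4a2 within groups were Lime1 (0.770), Atf4 (0.805) and Nfat5 (0.806). Over all differences Socs1 was nearest to Trat1, a T cell adaptor (0.640). Trat1 averaged 434 ± 134 CPM in cromolyn after AOM, 246 ± 157 CPM in cromolyn with AOM and 33.4 ± 25.6 CPM in AOM only (SD, n = 3 each). It averaged 335 ± 173 CPM in wild-type lesions, of the same labelled treatment as AOM only, and 171 ± 130 CPM in sash lesions (SD, n = 3 each). In tumours it was at 4.59 ± 1.48 CPM in sash and 2.90 ± 1.85 CPM in wild-type mice (SD, n = 5 each). Within groups the SD of Nfkbia was 0.28 on the log2 scale, smaller than that of most genes (median 0.41), and those of Nr4a2 (0.39), Rgs16 (0.44) and Socs1 (0.51) were near or above that median.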

How the data were processed

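RNA of 36 mouse samples in 9 groups was read with a targeted panel, per the labels' protocols (QIAseq Mouse Immuno-Oncology, sequenced on a MiSeq). The authors deposited whole-number counts per gene in 2 tables, unnormalised. Each has 993 entries, of which 988 are genes and 5 are controls at 0, left out here. The submitters' processing notes name build mm9 and DESeq2. The aligner and the counter, and whether reads or molecular tags are meant, were not given in the sources used here. Of the samples, 34 libraries were analysed (25 and 9), and MC-38 wild-type replicate 2 and sash replicate 3 were not analysed here. Replicates differed beyond sampling noise (chi-square per degree of freedom 5.85 to 194), so none was taken as a duplicate.

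Counts were tested with edgeR 4.0.16 in R 4.3.3 (quasi-likelihood, TMM, robust, filterByExpr with a minimum count of 10 and total of 15) and Benjamini-Hochberg adjustment over all tested genes, with a threshold of 0.05. The method was tested on simulated data. Tumours, lesions and MC-38 tumours were fitted separately by genotype, the 3 cromolyn groups jointly, and all 4 groups of tumours and lesions jointly for stage and for the difference of genotype effects. Likeness is the root-mean-square difference of standardised log2 CPM (prior count 2) among genes with a mean of at least 10 counts. Genes named beside the members were, per list and comparison, up to 3 of smallest p, and per member the 3 nearest genes. The members and the 22 lists (130 of 270 names on the panel) were chosen with earlier results of these data known. Whether same-numbered samples deviated together was checked on these data, and sash and wild-type lesions did so (correlations 0.389, 0.161 and 0.514). No other fit passed this check. The labels do not say that the numbers pair samples, so the main fits had no block and the block is an alternative. Alternatives were RLE size factors, library totals, scaling to Rpl13a, no filter, DESeq2 1.42.0, a replicate block, leaving out each library, and 1 fit of all AOM libraries. Figures were drawn with matplotlib 3.10.9.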

Additional observations from a re-analysis of the deposited data

Results flagged for a closer look

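One value lay far from its group. Socs1 was at 98.1 CPM in wild-type tumour replicate 5, while the remaining 4 libraries of that group lay at 26.9 to 41.9 CPM, a wide gap for the range of the group. Chance gives such a gap in about 1 in 20 groups of this size, and the series holds 9 groups for each of the 4 genes.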

How the results depend on the processing

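Every comparison rests on 3 to 5 libraries a group. Counts under 40 limit Rgs16, Socs1 and Nr4a2 in the cromolyn experiment and Nr4a2 in MC-38 tumours. They also limit Socs1 in wild-type tumours 2, 3 and 4 (28, 37 and 26 counts). The same holds for Rgs16 in wild-type lesions 1 and 2 (26 and 38 counts) and in sash MC-38 tumour 1 (38 counts). Rgs16 between stages kept its direction under every alternative run, at 1.86 to 2.41 in sash and 1.5 to 1.87 in wild-type mice on the log2 scale. Library totals moved the median of all genes by 0.21 (wild-type stages), 0.18 (sash stages) and 0.11 (cromolyn after AOM), and scaling to Rpl13a moved it by 0.13 (tumours), 0.14 (cromolyn after AOM) and -0.26 (cromolyn with AOM). The cause of the changes below was not tested.

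Genes called between tumours of the 2 genotypes numbered 2 with library totals, 82 with DESeq2, 88 in 1 fit of all AOM libraries and 6 without wild-type tumours 2 and 4, against 0. Lesions gave 36 genes without a filter, 70 with DESeq2 and 84 with the replicate block, against 22. MC-38 tumours gave 3 genes with Rpl13a scaling, 51 with DESeq2 and 3 with the replicate block, against 9, and 2 of the 4 feedback genes with DESeq2, against 0. Cromolyn with AOM gave 18 genes with library totals, 1 with Rpl13a scaling, 39 with DESeq2, 7 with the replicate block and 0 in the joint fit, against 2. Cromolyn after AOM gave 10 genes with Rpl13a scaling, 21 with the replicate block and 0 in the joint fit, against 37. Wild-type stages gave 125 genes with Rpl13a scaling, against 314, and of Socs1 and Nr4a2 0 passed with Rpl13a scaling and 0 without wild-type tumours 2 and 4, against 1. Sash stages gave 228 genes with Rpl13a scaling, against 403, and of Socs1 and Nr4a2 0 passed with Rpl13a scaling and 1 with the replicate block, against 2. The difference of genotype effects gave 20 genes with DESeq2, 4 in the joint fit and 8 without wild-type tumours 2 and 4, against 0. With library totals, 223 genes were higher and 90 lower between wild-type stages, against 165 and 149, and 254 were higher and 150 lower between sash stages, against 203 and 200.

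Outside the lesions, no fit passed the check that same-numbered samples deviate together. Under the replicate block Nr4a2 lost its call between sash stages (0.94, adjusted p = 0.0615), and no other call of the feedback genes in the comparisons given with a test changed.

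Directions turned only for small differences. Nfkbia became -0.20 and Rgs16 -0.19 for cromolyn with AOM, and Nfkbia 0.058 for cromolyn after AOM, with Rpl13a scaling. With library totals Nfkbia became 0.048 for cromolyn after AOM and 0.20 between wild-type stages, and Nr4a2 0.021 between wild-type stages. Nfkbia between wild-type stages was 0.0033 without a filter, 0.011 with the replicate block, 0.0028 in the joint fit and 0.13 without wild-type tumours 2 and 4. In the difference of genotype effects, Nfkbia became -0.015 and Socs1 -0.21 without wild-type tumours 2 and 4.

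Leaving out each library gave 0 to 17 genes for tumours, 0 to 68 for lesions, 3 to 17 for MC-38 tumours, 0 to 18 for cromolyn with AOM, 1 to 41 for cromolyn after AOM, 183 to 367 for wild-type stages, 298 to 437 for sash stages and 0 to 10 for the difference of genotype effects. Of Socs1 and Nr4a2, 0 to 1 passed for wild-type stages and 0 to 2 for sash stages. Nfkbia ranged from -0.034 to 0.21 (cromolyn with AOM), -0.19 to 0.14 (cromolyn after AOM), -0.12 to 0.12 (wild-type stages) and -0.0040 to 0.25 (difference of genotype effects), Socs1 from -0.15 to 0.49 (difference of genotype effects) and Nr4a2 from -0.45 to 0.32 (wild-type stages).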
